A study of Homo sapiens with 3 samples.

Results

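Genes of the BMP, TGF-beta and activin signalling pathways were examined in primitive neural progenitor cells (pNPCs), an early neural stage, grown out of H1 human embryonic stem cells, an established line. The list held 53 of the 62754 genes in the tables: ligands, receptors, SMAD proteins, extracellular antagonists and target genes, chosen by symbol for their known roles, with earlier results of these data known. All 53 were found, and each is protein-coding. The labels give 1 group of 3 wild-type libraries of polyadenylated RNA and no treated or control group. Per the labels, pNPC medium held FGF2 (20 ng/ml), human LIF (10 ng/ml), the GSK3 inhibitor CHIR99021 (3 µM), the ROCK inhibitor Y-27632 (10 µM) and SB431542 (2 µM), with N2 and B27 supplements. SB431542 blocks the kinases of the type I receptors encoded by TGFBR1, ACVR1B and ACVR1C. No library without it is in the series, so its effect on any level below cannot be measured here.

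Ligands of this superfamily bind pairs of type I and type II receptor kinases, and the type I kinase phosphorylates receptor SMADs, which enter the nucleus with SMAD4. BMPs act through the type I receptors BMPR1A, BMPR1B and ACVR1 and through SMAD1, SMAD5 and SMAD9. TGF-beta, activin and nodal act through TGFBR1, ACVR1B or ACVR1C and through SMAD2 and SMAD3. In the embryo BMPs from the roof plate pattern the dorsal neural tube and help to set up neural crest, whereas blocking the activin and nodal branch favours neural conversion of stem cells. ID1, ID2, ID3 and ID4 encode proteins that bind bHLH transcription factors and keep them off DNA, and they are widely used as readouts of BMP signalling.

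ID3, ID2 and ID1 had the 3 highest mean TPM values of the list, although FSTL1 exceeded ID1 in replicate 2 and TGFBI did in replicate 3. The 250 bases before the annotated starts of the 4 ID genes are shown because these genes are widely used as BMP readouts. BMP signalling itself was not measured in these data. They come from the RefSeq promoter table (GRCh38.p14), which matched 46 of the 53 genes, and are written 5′ to 3′ on the gene's strand. Capitals mark the CCAAT box (CCAAT or, on the other strand, ATTGG) and the TATA box (TATAAA or TTTATA). The CCAAT box was added after the sequences were read.
ID1: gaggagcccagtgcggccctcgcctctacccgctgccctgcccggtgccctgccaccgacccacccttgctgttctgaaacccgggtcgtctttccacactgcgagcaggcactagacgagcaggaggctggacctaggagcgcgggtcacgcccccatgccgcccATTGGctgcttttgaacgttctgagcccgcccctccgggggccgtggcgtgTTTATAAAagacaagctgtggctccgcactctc
ID2: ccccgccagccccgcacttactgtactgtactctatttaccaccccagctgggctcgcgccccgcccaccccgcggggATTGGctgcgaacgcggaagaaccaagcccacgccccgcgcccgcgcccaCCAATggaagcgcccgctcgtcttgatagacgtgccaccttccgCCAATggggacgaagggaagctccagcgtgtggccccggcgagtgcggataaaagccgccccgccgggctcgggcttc
ID3: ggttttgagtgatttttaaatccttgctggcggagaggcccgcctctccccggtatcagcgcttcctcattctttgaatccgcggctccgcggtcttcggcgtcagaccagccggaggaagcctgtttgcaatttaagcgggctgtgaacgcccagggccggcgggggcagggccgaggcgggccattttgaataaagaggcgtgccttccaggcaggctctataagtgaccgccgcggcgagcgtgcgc
ID4: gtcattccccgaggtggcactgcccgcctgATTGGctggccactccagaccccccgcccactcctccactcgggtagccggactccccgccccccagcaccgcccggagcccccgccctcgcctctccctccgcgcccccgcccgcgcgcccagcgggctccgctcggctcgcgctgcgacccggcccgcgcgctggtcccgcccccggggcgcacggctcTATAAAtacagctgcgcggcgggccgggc
The ID1 window is chr20:31605039-31605288 on the plus strand, ID2 is chr2:8681806-8682055 (plus), ID3 is chr1:23559502-23559751 (minus) and ID4 is chr6:19837120-19837369 (plus). A CCAAT box stood in the windows of ID1, ID2 and ID4 and in 32.0% of the 35116 windows of this length in the table. The letters TATAAA stood in those of ID1 and ID4 and in 10.7% of all windows. In ID1 both orientations of that motif overlap in the run printed in capitals. The GC-rich SMAD motif GGCGCC stood in 0 of the 4 windows and in 16.4% of all, and the SMAD box CAGAC, on either strand, in those of ID3 and ID4 and in 38.0% of all. These matches describe letters in this window only.

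Depth and the state of the cells were as follows. The libraries held 30038114 to 38400092 expected counts, and pairs of libraries differed by 19.4 to 82.5 in chi-square per degree of freedom, so none was a copy of another. Replicate 1 lay farthest from the others. Of 8 neural progenitor markers 7 were detected, the exception being PAX6, and of 4 pluripotency markers only DPPA4 was, with POU5F1 at 0.08 to 0.14 TPM. Markers of mesenchyme (8 of 8) and neural crest (6 of 6) were also detected, whereas 0 of 10 markers of epidermis, endoderm and mesoderm were. Bulk RNA cannot assign a pathway gene to any of these cell types, and fewer cells of a type cannot be told apart from less RNA per cell.

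TPM, RSEM's measure of relative transcript abundance, corrects a count for effective transcript length and sums to the same total in each library. A gene is called detected when it reached 1 TPM in all 3 libraries. By this rule 37 of the 53 genes were detected (69.8%), against 62.2% of protein-coding genes and 23.0% of all genes in the tables. The share is near that of protein-coding genes in general. A further 6 genes reached 1 TPM in 1 or 2 libraries (BMP8B, GDF7, TGFB1, INHBE, NODAL and FST), and 10 in none. Sorted by branch, 19 of 25 BMP genes were detected, 11 of 21 genes of the TGF-beta, activin and nodal branch, and 7 of 7 genes that serve both branches or neither. The genes that were not detected were 6 ligands on the BMP side and, on the other, 6 ligands, 3 secreted antagonists and the receptor ACVR1C. All SMAD genes were detected.

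**Figure D1:**
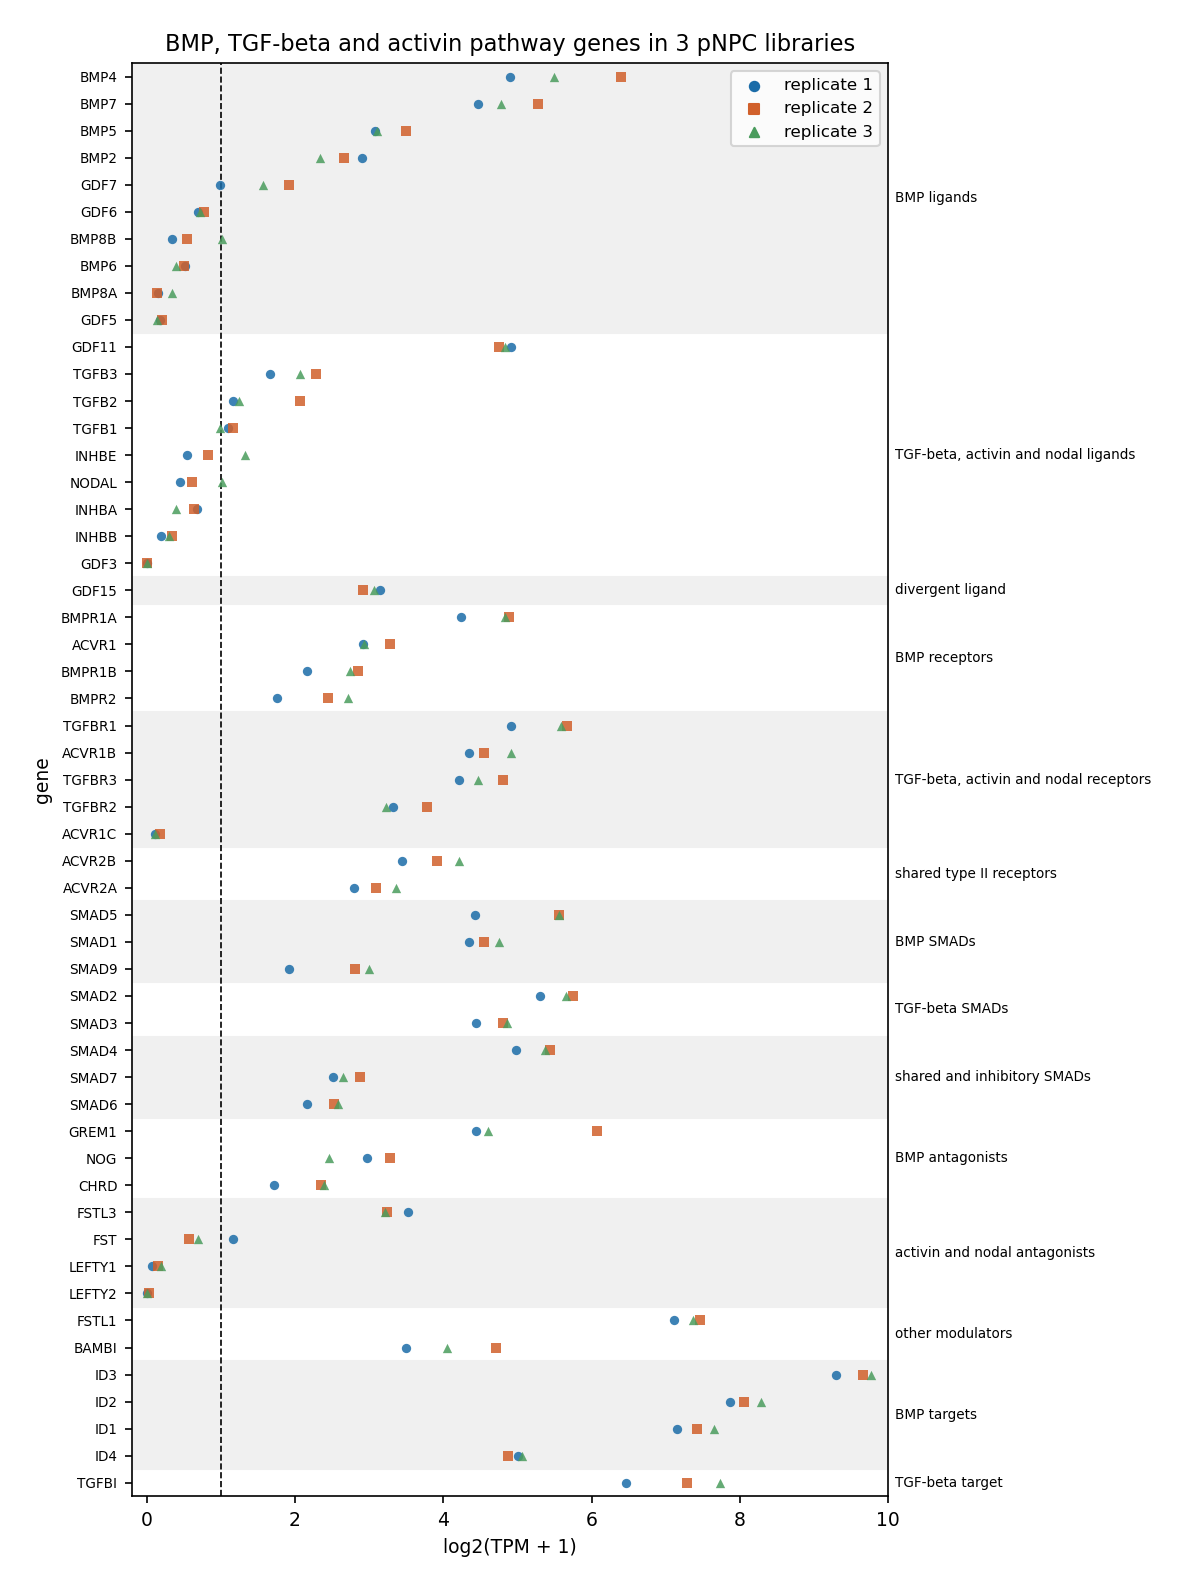
Level of each of the 53 genes in each library as log2(TPM + 1), grouped by role and ordered by mean level within a role. Points are single libraries, and the dashed line marks 1 TPM. ID3, ID2, ID1, FSTL1 and TGFBI lie farthest to the right. Genes at or near the left edge in all 3 libraries include GDF3, LEFTY1, LEFTY2, ACVR1C and the BMP ligand GDF5.

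Among BMP ligands, BMP4 and BMP7 were the most abundant and 4 of 10 were detected. BMP4 (chromosome 14, 53949736 to 53956891, GRCh38), a dorsalizing ligand of the roof plate and surface ectoderm, had 28.80, 83.63 and 44.19 TPM in replicates 1, 2 and 3. Replicate 2 was thus 2.9 times replicate 1. BMP7 (chromosome 20, 57168753 to 57266641), which can pair with BMP4, had 21.13, 37.78 and 26.37 TPM. It lay below BMP4 in each of the 3 libraries, by 0.78 ± 0.35 log2 units within a library (mean ± SD, n = 3). Together BMP4 and BMP7 formed most of the BMP ligand signal, at 51.2 ± 7.84% and 29.7 ± 2.67% of the summed TPM of the 10 genes.

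BMP5 and BMP2 followed at a lower level. BMP5, a close relative of BMP7, had 7.45, 10.26 and 7.58 TPM, and BMP2, the closest relative of BMP4, had 6.46, 5.34 and 4.07 TPM. BMP5 was the higher of them in every library, but the replicate ranges, 7.45 to 10.26 and 4.07 to 6.46, stood less than 1 TPM apart. GDF7, a ligand of the roof plate, had 0.99, 2.77 and 1.95 TPM, just under the detection limit in replicate 1. BMP8B reached 1.02 TPM in replicate 3 but 0.26 and 0.46 in replicates 1 and 2, and its exons overlap those of PPIE on the other strand, whose count was 3902.2% of its own. The others stayed under 1 TPM in every library, with GDF6 at 0.653 ± 0.0416, BMP6 at 0.383 ± 0.0643, BMP8A at 0.157 ± 0.0896 and GDF5 at 0.127 ± 0.0252 TPM.

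On the TGF-beta, activin and nodal side 1 ligand gene stood out. GDF11 (chromosome 12, 55743122 to 55757264), a ligand related to myostatin that signals through SMAD2 and SMAD3, had 29.12, 26.06 and 27.61 TPM. Its coefficient of variation of 5.54% in TPM was well under the 13.7% median of detected protein-coding genes. This depended on the scaling. In log2 counts scaled to library size it lay at 0.16, -0.11 and -0.05 from the mean of the libraries. With each library's trend on effective length removed, it lay at 0.49, -0.25 and -0.25. GDF11 made up 76.8 ± 5.62% of the summed TPM of the 9 ligands of this branch. Its exons overlap those of SARNP on the opposite strand, which had 80.7% as many counts. The labels do not say whether counting used strand, so reads of this pair cannot be told apart.

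The TGF-beta genes themselves were low. TGFB3 had 2.16, 3.87 and 3.20 TPM, TGFB2 had 1.24, 3.19 and 1.37, and TGFB1 had 1.14, 1.23 and 0.98 TPM. TGFB3 exceeded TGFB1 in every library by 1.43 ± 0.44 log2 units (n = 3), and TGFB2 also exceeded TGFB1 in every library, by 0.12, 1.37 and 0.48 log2 units (0.66 ± 0.65), a difference about as large as its spread. TGFB1 shares exon sequence with HNRNPUL1 on the other strand, a gene with 17056.9 counts on average against 68.3, so its small value carries more doubt than its counts show. For TGFB2 the effective transcript length differed 1.52-fold between libraries, and its CPM, a count scaled to library size only, differed 3.39-fold where its TPM differed 2.57-fold.

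Activin and nodal ligands were low, at no more than 1.51 TPM in any library. INHBA and INHBB, which encode the subunits of activins A and B, had 0.487 ± 0.155 and 0.21 ± 0.0624 TPM (SD, n = 3). INHBE, a related subunit, had 0.45, 0.77 and 1.51 TPM, a 3.36-fold range that was 1.93-fold in CPM, since its effective length differed 1.61-fold between libraries. NODAL had 0.37, 0.52 and 1.02 TPM, with Poisson 95% intervals of 0.212 to 0.582, 0.328 to 0.761 and 0.715 to 1.4, and a transcript model of unclear status on the opposite strand of its exons held more counts. GDF3, a nodal-like ligand of pluripotent cells, was without a count in any library, and 3 counts would give at most 0.152 TPM. These intervals and floors cover counting error only. GDF15, a stress-responsive member of the family that acts through another kind of receptor, stood apart at 7.88, 6.52 and 7.39 TPM.

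Summed over genes, BMP ligands reached 66.4, 141.6 and 86.5 TPM in replicates 1, 2 and 3, against 35.2, 36.5 and 36.2 TPM for ligands of the other branch. The BMP sum was higher in each library, by 1.88, 3.88 and 2.39 times. Without GDF11 the other sum fell to 6.1, 10.4 and 8.62 TPM. The median BMP ligand exceeded the median ligand of the other branch by 0.32 ± 0.18 on the log2(TPM + 1) scale. That difference was 2.03 among detected ligands and 1.05 in CPM, and the log2(TPM + 1) scale understates differences of low genes.

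Receptors showed the opposite order. TGFBR1 (chromosome 9, 99103647 to 99154192), the type I receptor of TGF-beta, was the highest receptor gene, with 29.19, 50.05 and 47.11 TPM. ACVR1B, the type I receptor of activin and nodal, had 19.26, 22.46 and 29.13 TPM, and BMPR1A, the main BMP type I receptor of early neural tissue, had 17.83, 28.70 and 27.55 TPM. TGFBR1 exceeded BMPR1A in each library by 0.76 ± 0.05 log2 units (n = 3), a gap that varied little although both genes were lowest in replicate 1. ACVR1B and BMPR1A did not differ beyond their spread (-0.05 ± 0.26), with ACVR1B higher in 2 of 3 libraries.

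The remaining type I genes were lower. ACVR1 had 6.56, 8.69 and 6.59 TPM, and BMPR1B, whose product is related to BMPR1A, had 3.49, 6.23 and 5.70 TPM, below BMPR1A by 2.28 ± 0.07 log2 units within a library. ACVR1C, the third kinase sensitive to SB431542, was nearly silent at 0.0967 ± 0.0289 TPM. The summed TPM of the 3 SB431542-sensitive genes was 48.5, 72.6 and 76.3, against 27.9, 43.6 and 39.8 for the 3 BMP type I genes. The first sum was thus 1.74, 1.67 and 1.92 times the second, so transcripts of the receptors that the medium inhibits outnumbered those of the BMP receptors in each library. These data hold no measure of kinase activity.

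Among type II receptors and the co-receptor, ACVR2B, which binds activins as well as several BMPs, led with 9.86, 14.07 and 17.51 TPM. ACVR2A, with the same range of ligands, had 5.94, 7.56 and 9.30 TPM, lower in each library by 0.85 ± 0.10 log2 units. Its exons overlap those of ORC4 on the other strand, whose count was 253.9% of its own. TGFBR2, the type II receptor of TGF-beta, had 8.98, 12.69 and 8.32 TPM, and BMPR2, specific for BMPs, only 2.38, 4.46 and 5.54 TPM. TGFBR3, or betaglycan, which presents TGF-beta2 to its receptors, had 17.59, 27.02 and 21.21 TPM. The difference of medians, BMP receptors minus receptors of the other branch, was -1.60 ± 0.10 on the log2(TPM + 1) scale, with values between -1.67 and -1.49. With the mean in place of the median it was -0.47 ± 0.13. The 2 lists are not alike: the 5 genes of the other branch include the co-receptor TGFBR3, whereas the 4 BMP receptor genes include no co-receptor. How far the difference depends on that choice was not tested.

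SMAD genes of both branches were detected. SMAD2 had 38.53, 53.01 and 49.38 TPM and SMAD3 20.70, 27.09 and 27.98 TPM, a ratio that hardly moved between libraries (0.89 ± 0.07 log2 units, n = 3). On the BMP side SMAD5 had 20.59, 46.42 and 46.35 TPM, SMAD1 19.30, 22.47 and 26.01 TPM and SMAD9 2.77, 6.03 and 7.00 TPM. In TPM, SMAD5 and SMAD9 were more than 2-fold lower in replicate 1 than in the others, while SMAD1 rose by less than 1.5 times from its lowest to its highest library. In CPM, without length scaling, the range was 1.78-fold for SMAD5 and 2.28-fold for SMAD9. The sum of SMAD2 and SMAD3 was 1.39, 1.07 and 0.975 times that of SMAD1, SMAD5 and SMAD9, so the sums did not differ in a steady direction. By the median gene the BMP SMADs were lower in each library, with differences of -0.53, -0.73 and -0.50 on the log2(TPM + 1) scale. SMAD4, the partner of both, had 30.52, 42.52 and 40.28 TPM.

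**Figure D2:**
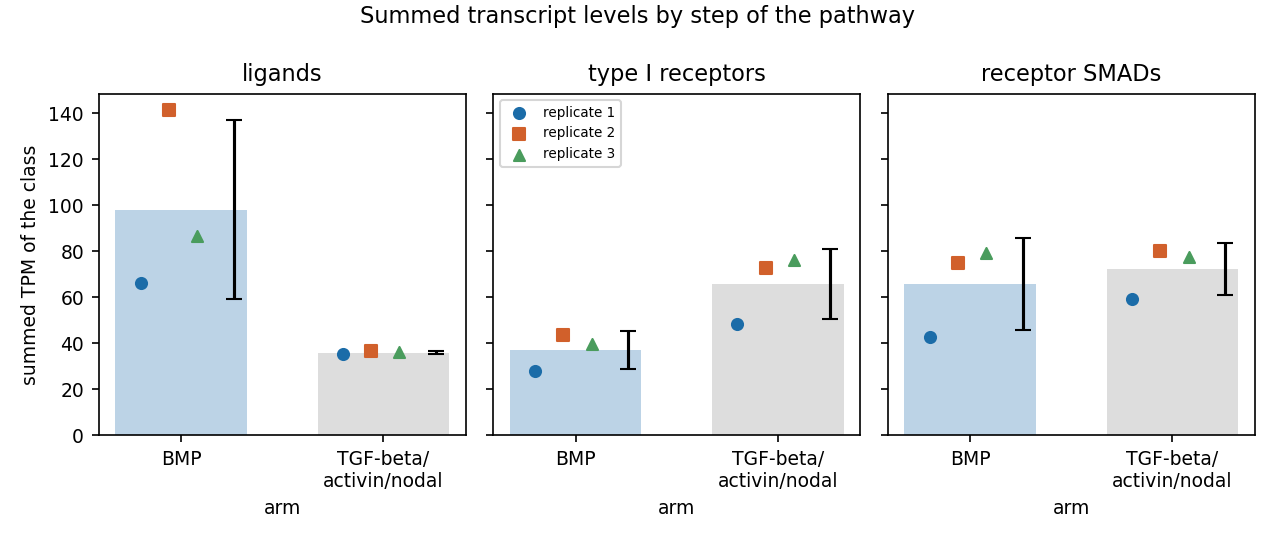
Summed TPM of the BMP branch (blue bars) and of the TGF-beta, activin and nodal branch (grey bars) at 3 steps of the pathway. Bars are means and error bars SD of 3 libraries, and points are single libraries. BMP ligands lie above the other ligands in each library, type I receptors show the reverse order, and the SMAD sums overlap.

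The feedback inhibitors SMAD6 and SMAD7, which are induced by signalling and shut receptors off, were low. Their coefficients of variation, 18.4% and 15.6%, lay somewhat above the 13.7% median of detected protein-coding genes. SMAD6, which acts mainly on the BMP branch, had 3.46, 4.74 and 4.95 TPM, and SMAD7, which acts on both, had 4.70, 6.37 and 5.26 TPM. SMAD7 was higher in each library, but by 0.32 ± 0.20 log2 units only, and the ranges overlap. BAMBI, a pseudoreceptor without kinase domain that is itself a BMP target, was higher and more variable at 10.26, 25.11 and 15.57 TPM. Its order over the libraries was that of BMP4.

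Secreted BMP antagonists were all detected. GREM1 (chromosome 15, 32718004 to 32745106), which encodes gremlin, a protein that traps BMP2, BMP4 and BMP7, had 20.76, 66.10 and 23.23 TPM. It made up 75.3 ± 7.53% of the summed TPM of the 3 antagonists. NOG, which encodes noggin, had 6.87, 8.69 and 4.48 TPM, and CHRD, which encodes chordin, 2.28, 4.10 and 4.24 TPM. GREM1 stood above NOG in each library (2.30 ± 0.67 log2 units), while NOG and CHRD came within 0.08 log2 units of each other in replicate 3. In each library BMP4 exceeded GREM1, by 0.47, 0.34 and 0.93 log2 units, and the summed BMP ligands were 2.22, 1.79 and 2.71 times the sum of GREM1, NOG and CHRD. That sum leaves out antagonists outside the 53 genes, such as NBL1 with 13.05, 16.86 and 18.89 TPM, so it is no balance of all ligands against all antagonists.

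Antagonists of activin and nodal were different. FSTL3, a follistatin-like inhibitor of activin, had 10.53, 8.49 and 8.26 TPM, whereas FST, which encodes follistatin, had 1.24, 0.49 and 0.62 TPM. The nodal inhibitors LEFTY1 and LEFTY2, direct targets of nodal signalling in stem cells, were nearly silent. LEFTY1 had 0.05, 0.11 and 0.14 TPM, from 4 or fewer counts per library, and LEFTY2 had 1 count in replicate 2 and 0 in the others. These genes are close copies, and reads that fit both are shared out between them. FSTL1, a secreted glycoprotein gene that despite its name is abundant in mesenchyme, was among the highest of the list at 137.75, 175.97 and 164.01 TPM.

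Target genes were led by ID3. It had 626.72, 809.99 and 870.00 TPM, or 61.9 ± 1.46% of the sum of the 4 ID genes. ID2 had 233.35, 265.74 and 311.80 TPM, ID1 141.96, 171.40 and 201.02 TPM and ID4 31.23, 28.41 and 32.26 TPM. The order ID3, ID2, ID1, ID4 held in every library, and the steps were tight: 1.50 ± 0.09 log2 units from ID3 to ID2, 0.66 ± 0.05 from ID2 to ID1 and 2.47 ± 0.25 from ID1 to ID4 (n = 3). Genes ID1, ID2 and ID3 were lowest in replicate 1 and highest in replicate 3, and ID4 did not share the low value of replicate 1. In CPM, without length scaling, ID1 and ID3 kept this order of libraries but ID2 was lowest in replicate 2.

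Other genes known as BMP targets, from a list outside the 53, varied. MSX1 and MSX2, homeobox genes of the dorsal neural tube and crest, had 144.1 ± 64.0 and 43.9 ± 27.6 TPM, and HEY1, also a NOTCH target, 40.5 ± 11.1 TPM. DLX5 at 0.193 ± 0.125 and GATA3 at 0.36 ± 0.422 TPM were not detected, and in all 5 of 7 were. Both MSX genes were highest in replicate 2, as BMP4 was: the log2 ratio of BMP4 to MSX2 was 0.40, 0.16 and 0.33 in the 3 libraries. HEY1, at 27.94, 44.5 and 48.97 TPM, was highest in replicate 3.

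TGFBI (chromosome 5, 136028988 to 136063818), a matrix protein gene named for its induction by TGF-beta, was among the 5 highest of the list. It had 87.00, 155.33 and 211.41 TPM, lowest in replicate 1 and highest in replicate 3 as ID1, ID2 and ID3 were. ID3 exceeded TGFBI in every library, by 2.42 ± 0.41 log2 units. Other genes known as TGF-beta targets were lower: TAGLN, a smooth muscle actin-binding protein gene, had 19.2 ± 5.43 TPM, CCN2, also a YAP target, 17.9 ± 7.07 TPM and SKIL, a feedback repressor, 8.77 ± 3.23 TPM. LTBP2, which encodes a matrix protein, was not detected at 0.497 ± 0.0351 TPM. Each of these genes also has inputs other than TGF-beta, and whether SB431542 lowered any of them cannot be read from 1 culture condition.

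Over all genes of a branch, the median BMP gene stood at 3.04 ± 0.21 and the median gene of the TGF-beta, activin and nodal branch at 1.52 ± 0.48 on the log2(TPM + 1) scale (n = 3). The difference, BMP minus the other, was 1.75, 1.21 and 1.60 in the 3 libraries. The sign depended on the genes that were not detected: among detected genes alone it turned to -0.18. No p is given for these medians, since the members were listed with results known.

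The spread between libraries was larger than that of genes of like abundance for GREM1 and BMP4. Of 48 pathway genes tested these 2 passed, where 1.59% of all 17046 genes tested passed (271), in an edgeR fit of all genes that sets each gene's deviation between libraries against the trend of dispersion on abundance. GREM1 differed 3.18-fold between its highest and lowest library in TPM and had a Benjamini-Hochberg adjusted p of 0.00122 in edgeR. BMP4, with a 2.9-fold range, had an adjusted p of 0.0411 in edgeR. Both calls rested on replicate 2, where both genes were highest. Without that library both adjusted p-values in edgeR were 1, and without replicate 3 that of BMP4 was 0.125. The call for BMP4 was also lost with the DESeq2 dispersion trend (adjusted p = 0.0687) and with no filter on low counts (edgeR adjusted p = 0.0559).

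**Figure D3:**
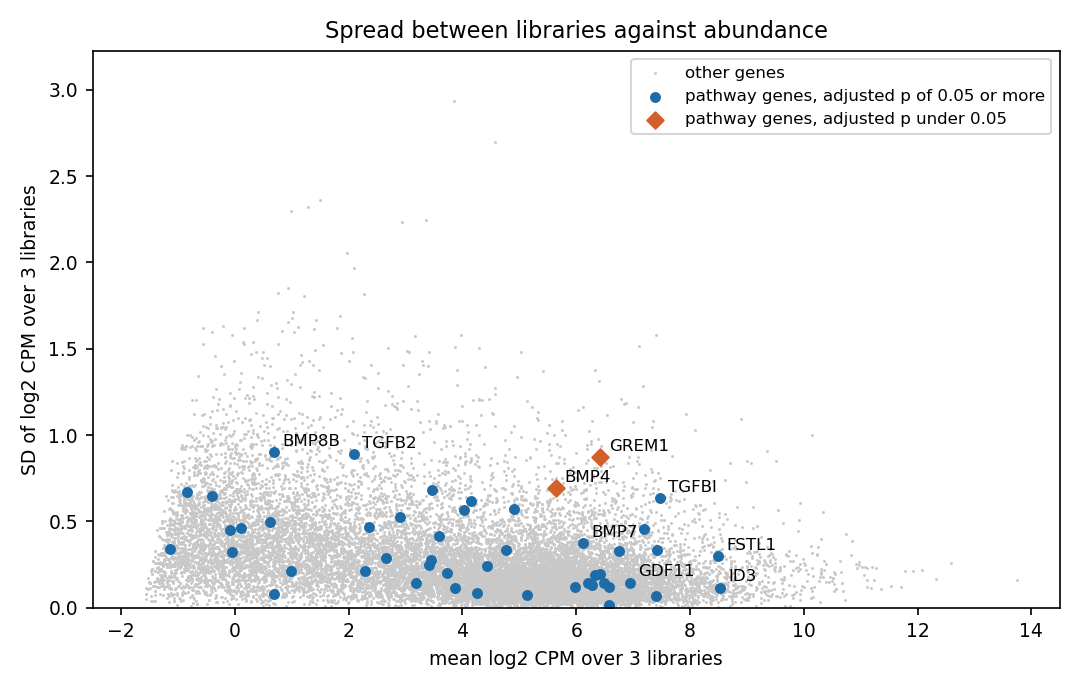
SD of log2 CPM (counts scaled to library size) over the 3 libraries against mean log2 CPM for the 17046 genes tested, with the 48 pathway genes in colour. GREM1 and BMP4 (orange diamonds) lie high for their abundance, and ID3 and GDF11 lie low.

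TGFBI had the next smallest value, with an edgeR adjusted p of 0.173, and fell under the threshold (0.00495) once each library's trend on effective length had been taken out. TGFB2 followed at 0.323 and BMPR2 at 0.377 (edgeR, adjusted). For BMPR2 the same correction worked the other way: its log2 CPM deviations of -0.64, 0.2 and 0.45 in replicates 1, 2 and 3 became -0.09, 0.0 and 0.09. The ID genes ranged by no more than 1.42 times in TPM, and the edgeR adjusted p of each of the 4 was 1. Thus BMP4 and its antagonist GREM1 differed about 3-fold between libraries in which ID1, ID2 and ID3 differed by less than 1.5 times and were highest in replicate 3. Other genes known as BMP targets were divided. MSX1, MSX2 and BAMBI had the order of BMP4, highest in replicate 2, and ranged 2.69-, 3.44- and 2.45-fold. HEY1, at 27.94, 44.5 and 48.97 TPM in replicates 1, 2 and 3, was highest in replicate 3, as was the feedback inhibitor SMAD6. The list of other BMP targets, which holds MSX1, MSX2 and HEY1 but not BAMBI, had 5 detected genes. Of these, 3 were highest in replicate 2 and 2 in replicate 3.

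Most mesenchyme markers and some roof plate markers were highest in replicate 2, as BMP4 and GREM1 were. The summed TPM of 8 mesenchyme markers was 651.8, 1379.1 and 964.5 in replicates 1, 2 and 3, and 7 of the 8 were highest in replicate 2, among them COL1A2 at 184.65, 387.82 and 260.82 TPM. Relative to COL1A2, the log2 level of BMP4 was -2.68, -2.21 and -2.56 and that of GREM1 -3.15, -2.55 and -3.49, a narrower range than that of either gene alone. Relative to PRRX1, another mesenchyme marker, the log2 level of BMP4 was -1.58, -1.81 and -2.43 and that of GREM1 -2.05, -2.15 and -3.36, a wider range than against COL1A2. Roof plate markers summed to 77.3, 212.9 and 168.5 TPM, nearly all of it MSX1. WNT3A, a Wnt ligand of the roof plate, had 2.44, 11.57 and 7.76 TPM, highest in replicate 2 as BMP4 was. RSPO1 reached 1.41 TPM in replicate 3, and LMX1A and WNT1 stayed under 1 TPM in each library. Neural crest markers ranged less in sum, from 170.2 to 230.3 TPM, but single markers went different ways. SOX10 (29.14, 22.39 and 15.15 TPM) and FOXD3 were highest in replicate 1 and TFAP2A in replicate 3. The other 3, among them SNAI2 (21.59, 45.83 and 31.58 TPM), were highest in replicate 2. The part of all these cell types in the levels of BMP4 and GREM1 was not tested.

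Neuronal markers summed to 1022.1, 614.5 and 565.3 TPM, mostly TUBB3 and NEFM. Of the 6, 4 were highest in replicate 1, where BMP4 was lowest, while MAP2 and DCX were highest in replicate 3. Neural progenitor markers were mixed, with 2461.7, 2539.2 and 2210.4 TPM in sum. Most of that sum was VIM, at 1898.59, 2112.55 and 1724.49 TPM. SOX2 had 97.84, 46.32 and 63.42 TPM, and SOX1, SOX3 and FABP7 were likewise highest in replicate 1, whereas NES (156.57, 194.51 and 191.43 TPM) and VIM were highest in replicate 2. Of the 37 detected pathway genes 30 had their lowest TPM in replicate 1 (81.1%), against 57.2% of detected protein-coding genes, and 19 of 37 had their highest in replicate 2, against 33.9%. Counted as log2 CPM, the median of the 48 genes tested lay at -0.15, 0.12 and 0.03 from the mean of the libraries, and at -0.06, 0.08 and -0.05 with the length trend removed. The typical shift of replicate 1 was thus small beside that of single genes such as BMP4 (-0.59) or GREM1 (-0.55). BMP4 and GREM1 were not the farthest from the mean in replicate 1. BMP8B lay at -0.83, TGFB2 at -0.79, GDF7 at -0.73, SMAD9 at -0.7, TGFBI at -0.69 and BMPR2 at -0.64. With the length trend removed, BMP4 lay at -0.66 and GREM1 at -0.41 in replicate 1. So corrected, TGFBI lay at -0.74, TGFB2 at -0.68, BMP8B at -0.64, SMAD9 at -0.46, GDF7 at -0.25 and BMPR2 at -0.09.

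**Figure D4:**
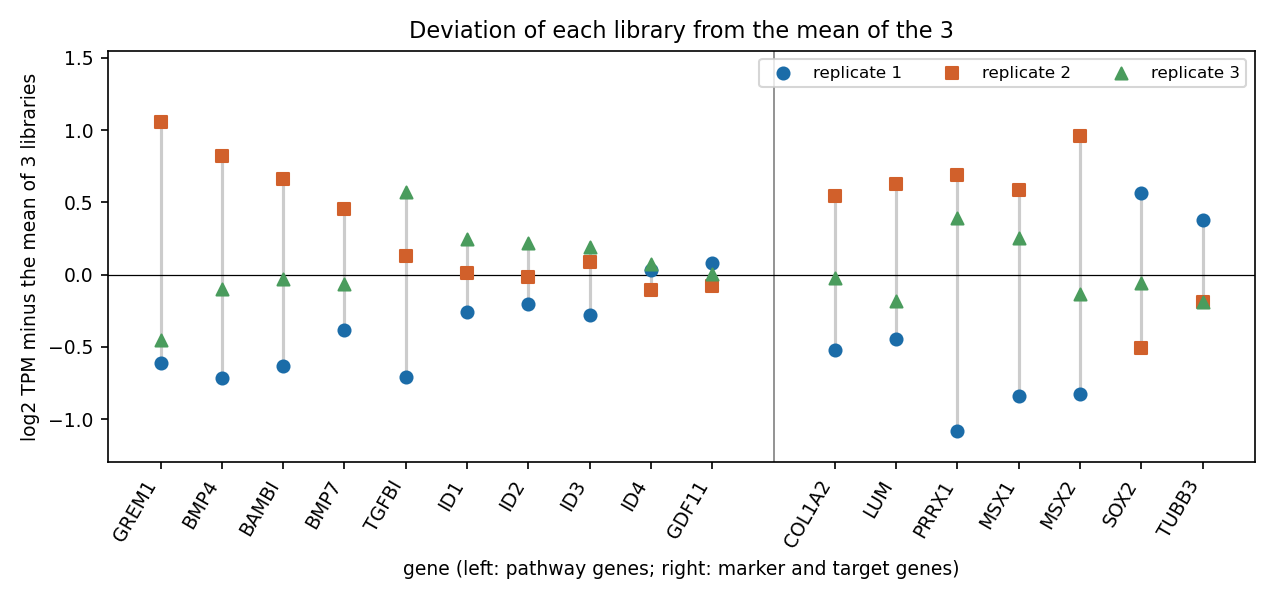
Deviation of each library from the mean of the 3 in log2 TPM, for 10 pathway genes (left) and 7 marker or target genes of other lists (right), picked after their values were seen. GREM1, BMP4, BAMBI and BMP7 are highest in replicate 2 along with COL1A2, LUM, PRRX1, MSX1 and MSX2, whereas ID1, ID2, ID3 and TGFBI are highest in replicate 3 and SOX2 and TUBB3 in replicate 1.

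The secreted and membrane modulators of BMP signalling outside the 53 were detected in 9 of 15 cases. The highest were TWSG1, which can both aid and oppose BMPs, at 28.9 ± 5.42 TPM, RGMA, a BMP co-receptor, at 23.0 ± 5.08 TPM and NBL1, an antagonist of the same family as gremlin, at 16.3 ± 2.96 TPM. SOST, which encodes sclerostin, had 1 count in replicate 2 and 0 in the others, and DAND5 was at 0.0267 ± 0.0252 TPM. Genes for handling of latent TGF-beta and for nodal reception were detected in 3 of 7 cases. LTBP4, which encodes a latent TGF-beta binding protein of the matrix, reached 331.76, 160.32 and 211.01 TPM, above any TGF-beta ligand. TDGF1, the nodal co-receptor known as Cripto, and CFC1, its relative, were without a count in any library, where 3 counts would give at most 0.211 and 0.114 TPM. NODAL, its co-receptors and the LEFTY genes were thus at 0 to 1.02 TPM in bulk libraries with 19.26 to 29.13 TPM of ACVR1B and 38.53 to 53.01 TPM of SMAD2.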

How the data were processed

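RNA-seq of 3 pNPC libraries formed 1 group by title. Nothing in the labels makes them separate cultures, so any p-value reflects the spread of these libraries alone, possibly a technical one. Tools named in the submitters' processing notes are RSEM 1.3.1, STAR 2.7.11a and Trim Galore 0.6.10, with the build GRCh38. The annotation release was not given in the sources used here, nor was a strand setting. Each table is an RSEM output, per the file headers. The deposited expected counts are estimated reads per gene, not normalized, and RSEM shares out reads that fit several genes: for 38 of the 53 genes the expected count was an exact whole number in all libraries. The deposited TPM values come from the authors' RSEM run, which divides by effective length and scales each library to the same sum. The deposited FPKM values were used only in an alternative. Effective lengths, in bases, are the deposited ones, and differed over 1.5-fold between libraries for 3 of the 53 genes.

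Totals were 34658454, 38400092 and 30038114 expected counts. Gene types and exon overlaps came from GENCODE 29, matched by identifier without version (92.8% of identifiers, 99.5% of counts). Exons of 20 of the 53 genes overlap another gene. Coordinates are 1-based, taken from RefSeq's gene table (GRCh38.p14). A gene without counts is given with the TPM of 3 counts in the library where that is highest.

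Members, their roles and the lists outside them were chosen with earlier results of these data known. All members may be named, of the other pathway lists the highest 3 and lowest 2 and any gene without counts, and all markers. 1 gene of the list of other TGF-beta targets is not reported here. Differences within a library are log2 ratios of TPM, or differences of medians of log2(TPM + 1), with no test. Excess spread was tested in edgeR 4.0.16 (R 4.3.3) across all genes on rounded expected counts, using TMM and filterByExpr, by the deviance of an intercept-only negative binomial fit at the trended dispersion against chi-square with 2 degrees of freedom, at a Benjamini-Hochberg adjusted p of 0.05, and the code was tested on simulated data. The fit with other size factors and dispersions used DESeq2 1.42.0. Other steps ran in Python 3.11.15 (scipy 1.17.1, pandas 2.3.3, numpy 2.4.6, matplotlib 3.10.9).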

Additional observations from a re-analysis of the deposited data

How the results depend on the processing

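The number of detected pathway genes (37) was 40 at a TPM minimum of 0.5, 27 at 5, 36 by FPKM, 48 by a count of at least 10, and 37 to 38 without any 1 replicate. The BMP minus TGF-beta, activin and nodal median over all members (1.52) was 1.93 with a pseudocount of 0.1, 1.04 with the mean of members, 1.89 in CPM without length scaling, 1.21 without the target genes and -0.18, reversed, with detected members only, where silent genes are left out by construction. It was 1.40 to 1.68 without 1 replicate. For ligands (0.32) the values were 0.53 with a pseudocount of 0.1, 2.03 with detected members, 0.68 with the mean and 1.05 in CPM, and 0.22 to 0.39 without 1 replicate. For receptors (-1.60) they were -1.74 with a pseudocount of 0.1 and with detected members, -0.47 with the mean and -1.53 in CPM, and -1.66 to -1.56 without 1 replicate. For SMADs (-0.59) they were -1.03 with the mean and -1.24 in CPM, and -0.63 to -0.51 without 1 replicate. The causes of these shifts were not tested. The number of pathway genes called for excess spread (2) was 1 with no filter, 1 with the DESeq2 trend, 3 with the length trend removed, where TGFBI was added, and 0 to 2 without 1 replicate, against 95 to 117 of all genes (271 with all libraries), in fits of 2 libraries with 1 degree of freedom fewer. The count was 0 without replicate 2, where 4 pathway genes had an unadjusted p under 0.05 in edgeR.

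No paired analysis was possible because the series has 1 group. The labels give no batch. With 3 libraries, differences under the replicate spread cannot be resolved, and LEFTY1, with 4 or fewer counts per library, LEFTY2 and GDF3 are at or near their floors.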

Other observations

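Intracellular regulators of SMAD signalling, a list outside the members, were detected in 14 of 14 cases. FKBP1A, whose product binds the glycine- and serine-rich region of type I receptors and keeps them inactive, stood highest at 153.9 ± 24.3 TPM (mean ± SD, n = 3). It was followed by the co-repressor genes TGIF1 at 59.0 ± 11.8 and SKI at 42.4 ± 2.44 TPM. SKIL, a close relative of SKI that is also a TGF-beta target, was lowest at 8.77 ± 3.23 TPM, and NEDD4L, a ubiquitin ligase gene, was next at 13.6 ± 1.52 TPM. SKI ranged 1.11-fold between libraries and SKIL 2.18-fold, with its lowest value in replicate 1.

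CHRDL1, a chordin-like BMP antagonist gene picked from these values, as CER1 was, had 7.51, 7.55 and 7.43 TPM, while GREM1 differed 3.18-fold between the same libraries. CER1, which encodes an inhibitor of BMP and nodal, had 0.04, 0.63 and 1.37 TPM from 1, 16 and 27 counts.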
